A study of Mus musculus with 5 samples.

Results

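Ccl17, Ccl22 and Ccl24 are 3 genes of the 28692 listed in each droplet matrix of mouse kidney, and they were chosen by name as type 2 chemokines after earlier summaries of these libraries had shown them among the phagocyte genes that moved with obstruction. Their levels below are therefore a description of where the transcripts were, and no test is attached to them. Ccl17 and Ccl22 are secreted chemokines that both act on the receptor CCR4, found on type 2 helper, regulatory and skin-homing T cells. Ccl24, also called eotaxin-2, acts on CCR3, the receptor of eosinophils and basophils. All 3 are induced by the type 2 cytokines IL-4 and IL-13 through STAT6, and in other tissues dendritic cells are the known source of Ccl17 and Ccl22 and alternatively activated macrophages that of Ccl24.

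The kidneys came from 8-week-old C57/BL6 mice subjected to reversible obstruction of a single ureter (UUO), an injury that blocks urine flow until the ureter is reopened. One droplet library (10x, 3' end counting) was made for each of 4 states: sham surgery (day 0), day 2 of obstruction, day 7 of obstruction, and 7 days after reversal, which was experimental day 14. Each library pooled 3 mice, so a state is 1 sample, mice cannot be separated within it, and intervals below cover counting error only and not the spread between mice. A plate-based Smart-seq2 sample of 768 wells mixed all time points.

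The libraries held 2739 to 5938 deposited cells and 18649637 to 30462683 UMIs (unique transcript molecules). The sham library stood apart, with a median of 40.6% mitochondrial UMIs per cell against 3.00% to 16.2% in the others, and after filtering it kept 65 mononuclear phagocytes, against 546 at day 2, 2435 at day 7 and 637 after reversal. Pairs of libraries shared 8 to 24 cell barcodes among kept cells. Cells were placed in gates by known marker genes, none of them a member of the trio, and a gate's name rests on those transcripts alone: macrophage-like, Ly6c2-high monocyte-like, type 1 and type 2 conventional dendritic-like (cDC1, cDC2) and Ccr7-positive dendritic-like cells, the last with the genes of dendritic cells that migrate to lymph nodes. The defining markers were present: C1qa in 96.4% of macrophage-gate cells, Ly6c2 in 89.3% of monocyte-gate cells, Xcr1 in 86.2% of cDC1, Cd209a in 76.1% of cDC2 and Ccr7 in 91.7% of Ccr7-positive cells. The cells of the cDC2 gate carried a median of 5 of their own 8 markers and 4 of the 8 macrophage markers. Near a border with another gate lay 55 of 523 cDC2, 26 of 203 cDC1 and 11 of 84 Ccr7-positive cells. Markers of mast cells, basophils and eosinophils, which carry the receptors named above, summed to 0, 28, 63 and 56 UMIs in the sham, day 2, day 7 and reversed libraries, and 1 cell in all held 2 or more of those 6 genes.

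Ccl17 (ENSMUSG00000031780) lies at chr8:94810453-94812036 on the plus strand of GRCm38, and Ccl22 (ENSMUSG00000031779) lies at chr8:94745590-94751699 on the same strand, 58753 bp upstream. The chemokine gene Cx3cl1 (chr8:94772009-94782427) and the pseudogene Gnb1-ps3 lie between them. Ccl24 (ENSMUSG00000004814) lies apart from them at chr5:135569937-135573049 on the minus strand. No annotated gene overlapped any of the 3, so their reads were not shared with an antisense partner in the annotation used. The promoters of the chromosome 8 pair are shown because both genes had their highest levels in the same dendritic gates; each runs from 250 bases before to 50 bases after the RefSeq start (GRCm38.p6; chr8:94810203-94810502 for Ccl17, chr8:94745434-94745733 for Ccl22, both plus strand), 5′ to 3′, with capitals marking the motif matches named below.
Ccl17: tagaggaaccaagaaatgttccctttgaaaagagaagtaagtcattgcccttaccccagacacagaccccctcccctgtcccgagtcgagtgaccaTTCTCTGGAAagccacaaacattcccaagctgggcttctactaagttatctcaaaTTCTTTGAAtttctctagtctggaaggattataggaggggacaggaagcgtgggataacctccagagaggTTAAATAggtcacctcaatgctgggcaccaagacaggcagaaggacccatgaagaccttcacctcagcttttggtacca
Ccl22: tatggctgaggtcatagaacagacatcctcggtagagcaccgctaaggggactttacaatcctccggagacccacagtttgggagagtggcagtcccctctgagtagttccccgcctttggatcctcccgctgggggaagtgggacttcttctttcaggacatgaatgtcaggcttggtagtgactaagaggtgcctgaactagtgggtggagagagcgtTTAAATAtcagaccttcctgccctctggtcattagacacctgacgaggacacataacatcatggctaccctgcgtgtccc

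The Ccl17 promoter held 1 match to the STAT6-type motif (TTC and GAA with 4 bases between them) at 154 to 145 bases before the start, and 1 match to the general STAT motif (TTC and GAA with 3 bases between them) at 99 to 91 bases before it. Of 32851 mouse promoters of the same length, 6.95% held the former motif and 8.30% the latter, so neither is rare, and a match is not evidence of binding. Neither motif had a match in this stretch of the Ccl22 promoter. Both promoters held TTAAATA, at 29 to 23 bases before the Ccl17 start and 30 to 24 before the Ccl22 start; this string was picked after the sequences had been seen, and 4.51% of promoters held it. No match was found in either promoter for the composite PU.1 and IRF motif (GGAA and GAAA with 2 bases between them), for the NF-kappaB consensus or for TATAAA, which 2.72%, 8.46% and 13.6% of promoters held. Motifs were searched on both strands. Positions are counted from the RefSeq start, which for Ccl17 is the gene start printed above. For Ccl22 it lies 94 bases downstream of the printed gene start, so the positions of the pair depend on that choice.

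Across whole libraries, transcripts of the trio were almost absent from the sham kidney and appeared with obstruction. Ccl17 had 0 UMIs in sham kept cells, 2924 at day 2, 7924 at day 7 and 2985 after reversal, which is 0, 175, 277 and 150 counts per 1000000 UMIs (CPM). Ccl22 had 1, 243, 1187 and 452 UMIs in the same order, or 0.0835, 14.6, 41.5 and 22.7 CPM. The share of kept cells that fell in the 3 conventional dendritic gates was 0.438%, 5.50%, 11.8% and 5.47%, so Ccl17, Ccl22 and dendritic cells were all lowest in sham and highest at day 7. Ccl24 followed another order, with 1, 509, 51 and 28 UMIs, or 0.0835, 30.5, 1.78 and 1.41 CPM, highest at day 2. Cell shares in a droplet library also depend on digestion and sorting, whose part in these totals was not tested.

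Few cells held most of the transcripts. At day 2, 22 cells with 10 or more Ccl17 UMIs held 93.4% of the library's Ccl17, at day 7 100 such cells held 84.0%, and after reversal 33 held 90.0%. Those high cells lay in conventional dendritic gates in 21 of 22, 89 of 100 and 30 of 33 cases. For Ccl22, 5 of 5, 26 of 27 and 7 of 8 high cells were in dendritic gates. For Ccl24 the high cells were 6 at day 2, 1 at day 7 and 1 after reversal, and all 8 were in macrophage or monocyte gates. The most common positive cell nevertheless held a single UMI: 688 of the 960 cells with Ccl17 at day 7 had exactly 1.

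**Figure D1:**
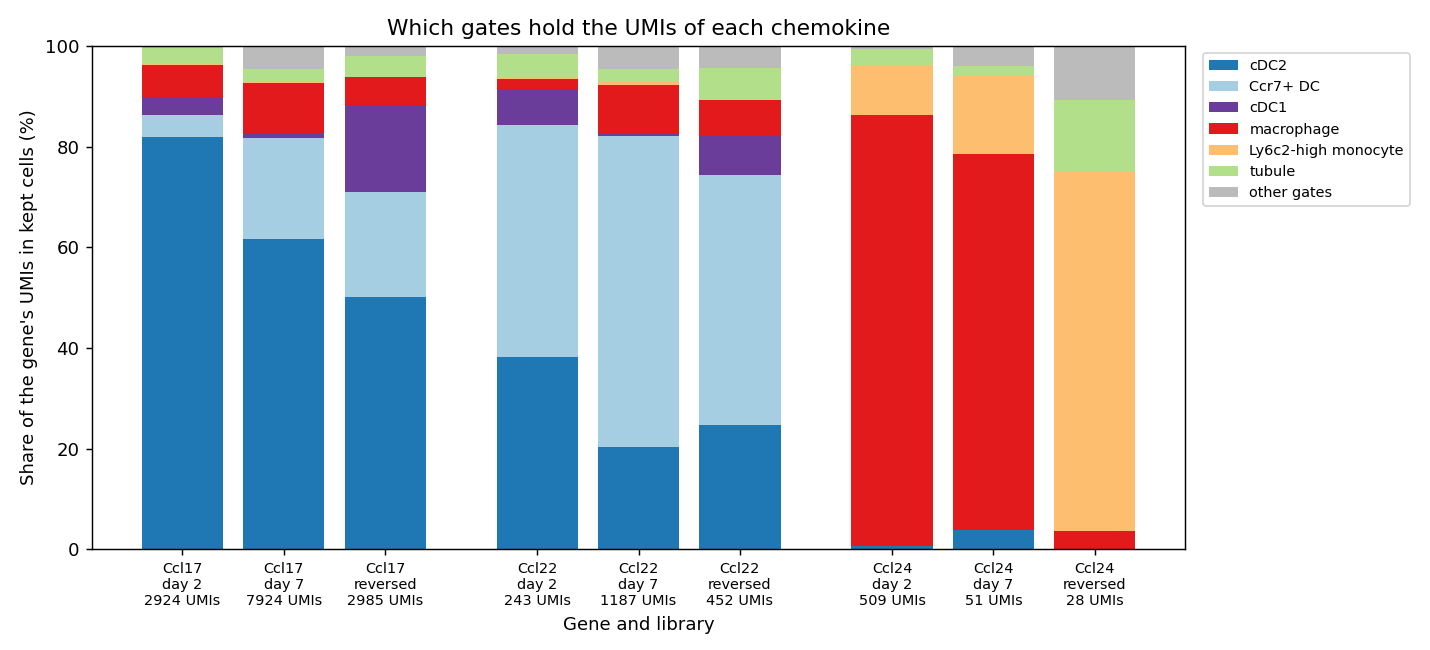
Share of each gene's UMIs, in percent of all its UMIs in kept cells, held by each cell gate in the day 2, day 7 and reversed libraries; the total is under each bar, and sham is left out because it had 0 or 1 UMI of each gene. Ccl17 was held mainly by cDC2, Ccl22 by Ccr7-positive and cDC2 cells, and Ccl24 by macrophage and monocyte gates.

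By share of UMIs, Ccl17 lay mainly in cDC2. The cDC2 gate held 81.9% of the library's Ccl17 UMIs at day 2, 61.7% at day 7 and 50.1% after reversal. Its level there was 2361 CPM (95% Poisson interval 2267 to 2457, 88 cells) at day 2, 1680 CPM (1633 to 1728, 332 cells) at day 7 and 1864 CPM (1771 to 1961, 88 cells) after reversal. The 15 sham cDC2 cells had no Ccl17 UMI, and 3 UMIs there, taken as the floor, would have been 35.4 CPM. In sham, 0 of 15 cells allows a share of cells with a Ccl17 UMI of up to 20% by the floor of 3 counts (3 of 15; the exact 95% upper limit is 21.8%), which limits detection and not expression.

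Between the obstructed and the reversed kidney, Ccl17 per cDC2 transcript was of one order. The log2 ratio of CPM (pseudocount 1 CPM) was -0.49 (95% counting interval -0.56 to -0.42) for day 7 over day 2 and 0.15 (0.07 to 0.23) for reversed over day 7. The second sign rested on 1 cell: without the single highest cell of each library the ratio was -0.28, and the first ratio was then -0.32. In background, 7.39% of 7953 genes were over 2-fold higher and 1.8% over 2-fold lower in cDC2 at day 7 than at day 2. In the reversed library against day 7 these shares were 1.82% and 3.44% of 7933 genes. In the main setting none of the 3 chemokines passed 2-fold in either cDC2 comparison among those with 30 or more UMIs. Over all settings the Ccl22 log2 ratio for reversed over day 7 ran from -0.40 to 1.55, past 2-fold at its upper end. The share of dendritic cells in the library was lower after reversal than at day 7.

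The share of cDC2 with a Ccl17 UMI was highest at day 7 before thinning and of one order after it. Median cDC2 depth was highest at day 2 and not at day 7, and the source of the higher unthinned share was not tested. UMIs were found in 33 of 88 cDC2 at day 2 (37.5%), 184 of 332 at day 7 (55.4%) and 35 of 88 after reversal (39.8%). After each cell was thinned to 1000 UMIs the shares were 23.9% (exact 95% interval 15.4 to 34.1), 25.9% (21.3 to 31) and 27.3% (18.3 to 37.8), which overlap. Thinned shares in tubule cells, which should lack the gene, were 0.318%, 2.44% and 1.54%, and unthinned 6.21%, 19.9% and 6.85%, at median depths of 5980.5, 7097 and 5128 UMIs against 10644.5, 8810.5 and 8542.5 in cDC2. The cDC2 shares lay above the tubule shares in each of these libraries, thinned and unthinned. The part of free RNA in the low-count cDC2 cells was not tested. Cells with 10 or more UMIs, a level no tubule or endothelial cell reached, made up 20.5%, 21.1% and 22.7% of cDC2. Among them the spread was wide: the highest cell held 485, 421 and 505 UMIs, and 4, 11 and 3 cells together held at least 50% of the gate's Ccl17.

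**Figure D2:**
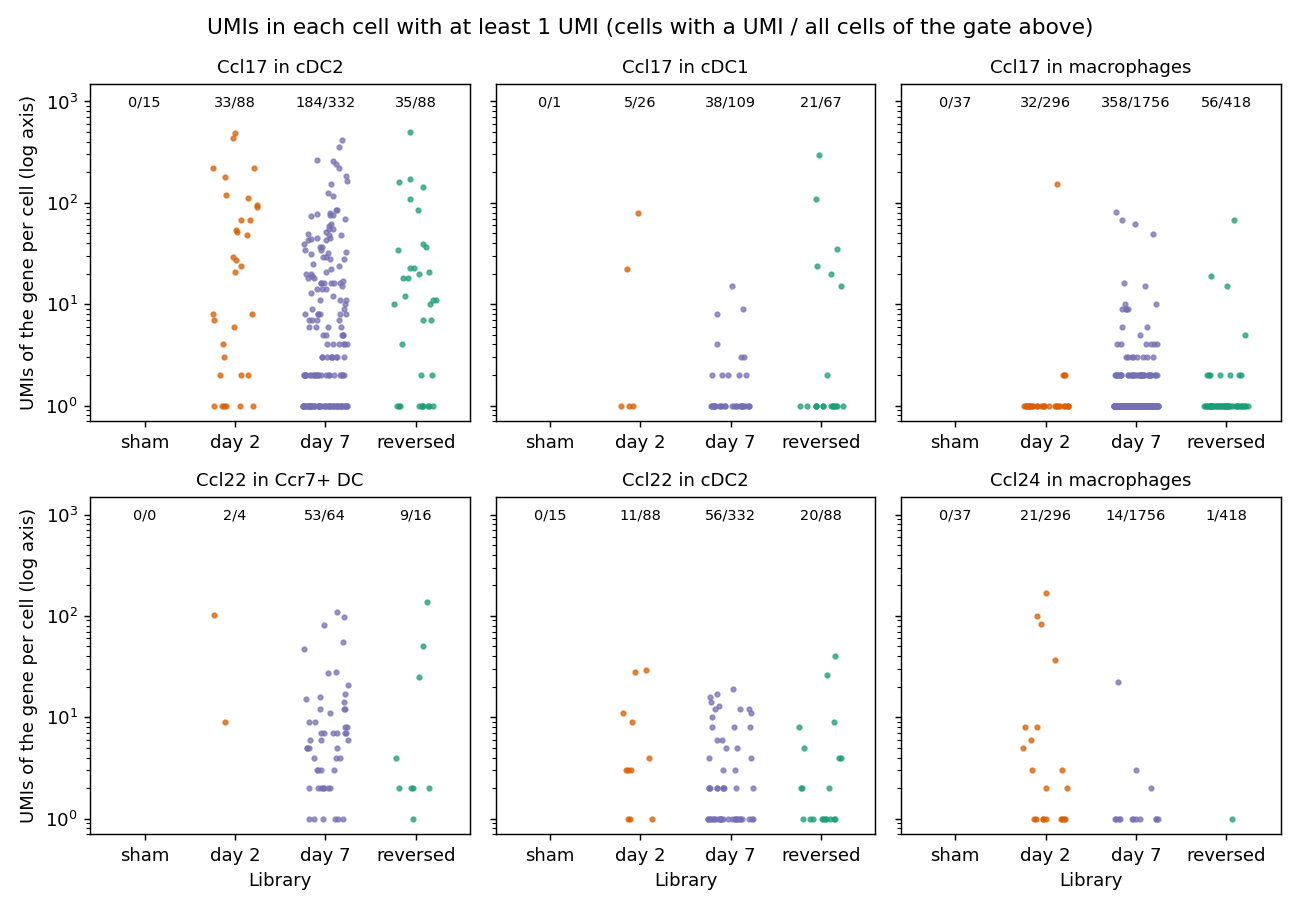
UMIs per cell (log axis) for every cell with at least 1 UMI of the gene, by library, in 6 pairs of gene and gate; points are cells, jittered sideways, and the numbers above give cells with a UMI over all cells of the gate. In cDC2 Ccl17 ran from 1 to 505 UMIs per cell, while most positive macrophage-gate cells held 1.

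Ccr7-positive dendritic cells, few in number, also carried Ccl17. The gate had no sham cell, 4 cells at day 2, 64 at day 7 and 16 after reversal. Ccl17 came to 129 UMIs from 1 of 4 cells at day 2, 1592 UMIs from 40 of 64 at day 7 and 621 UMIs from 6 of 16 after reversal, or 3642, 2975 and 4590 CPM, above the cDC2 level in each of the 3 libraries. Without the highest cell of each gate the levels were 2355 against 1540 CPM in cDC2 at day 7 and 1618 against 1264 CPM after reversal, while at day 2 no Ccl17 UMI was left in the Ccr7-positive gate. One cell held 426 of the 621 UMIs after reversal, so that the log2 ratio to day 7 was 0.63 (0.49 to 0.76) with it and -0.54 when the highest cell of each library was left out. Among genes with 30 or more UMIs in this gate, 3.06% were over 2-fold higher and 7.22% over 2-fold lower after reversal. In the main setting neither Ccl17 nor Ccl22 passed 2-fold. Over all settings the Ccl17 ratio ran from -1.12 to 1.31, past 2-fold in both directions, and the Ccl22 ratio from -0.74 to 0.34.

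The cDC1 gate, whose cells are known for cross-presenting antigen, held Ccl17 at levels that differed between libraries. It held 104 UMIs in 5 of 26 cells at day 2, 79 in 38 of 109 at day 7 and 518 in 21 of 67 after reversal, or 308, 63.5 and 660 CPM. The log2 ratio was -2.26 (-2.70 to -1.83) for day 7 over day 2 and 3.36 (3.02 to 3.71) for reversed over day 7. The day 2 value stood on 1 cell with 79 UMIs, and without the highest cell of each library the first ratio was -0.57. With gates drawn from z-scores of the marker panels it was -0.075. The reversed value rested in part on 1 cell, and without the highest cells the second ratio was 2.43. Of the reversed cells, 6 had 10 or more UMIs, against 1 at day 7. Over all settings the second ratio ran from 2.43 to 4.27. Near a gate border lay 16 of 67 reversed cDC1, against 6 of 109 at day 7. Ccl22 in cDC1 had small counts, with 17, 4 and 35 UMIs, and 16 of the 17 at day 2 were in 1 cell. Its reversed over day 7 ratio was 3.44 (2.17 to 4.70), with 15 of the 35 reversed UMIs in 1 cell. Both chemokines were thus past 2-fold after reversal in cDC1, where 1.58% of 5835 genes were higher and 2.47% lower; for day 7 over day 2, 2.06% were lower, Ccl17 with these gates among them, and 8.75% higher, and Ccl22 had too few UMIs to be counted.

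**Figure D3:**
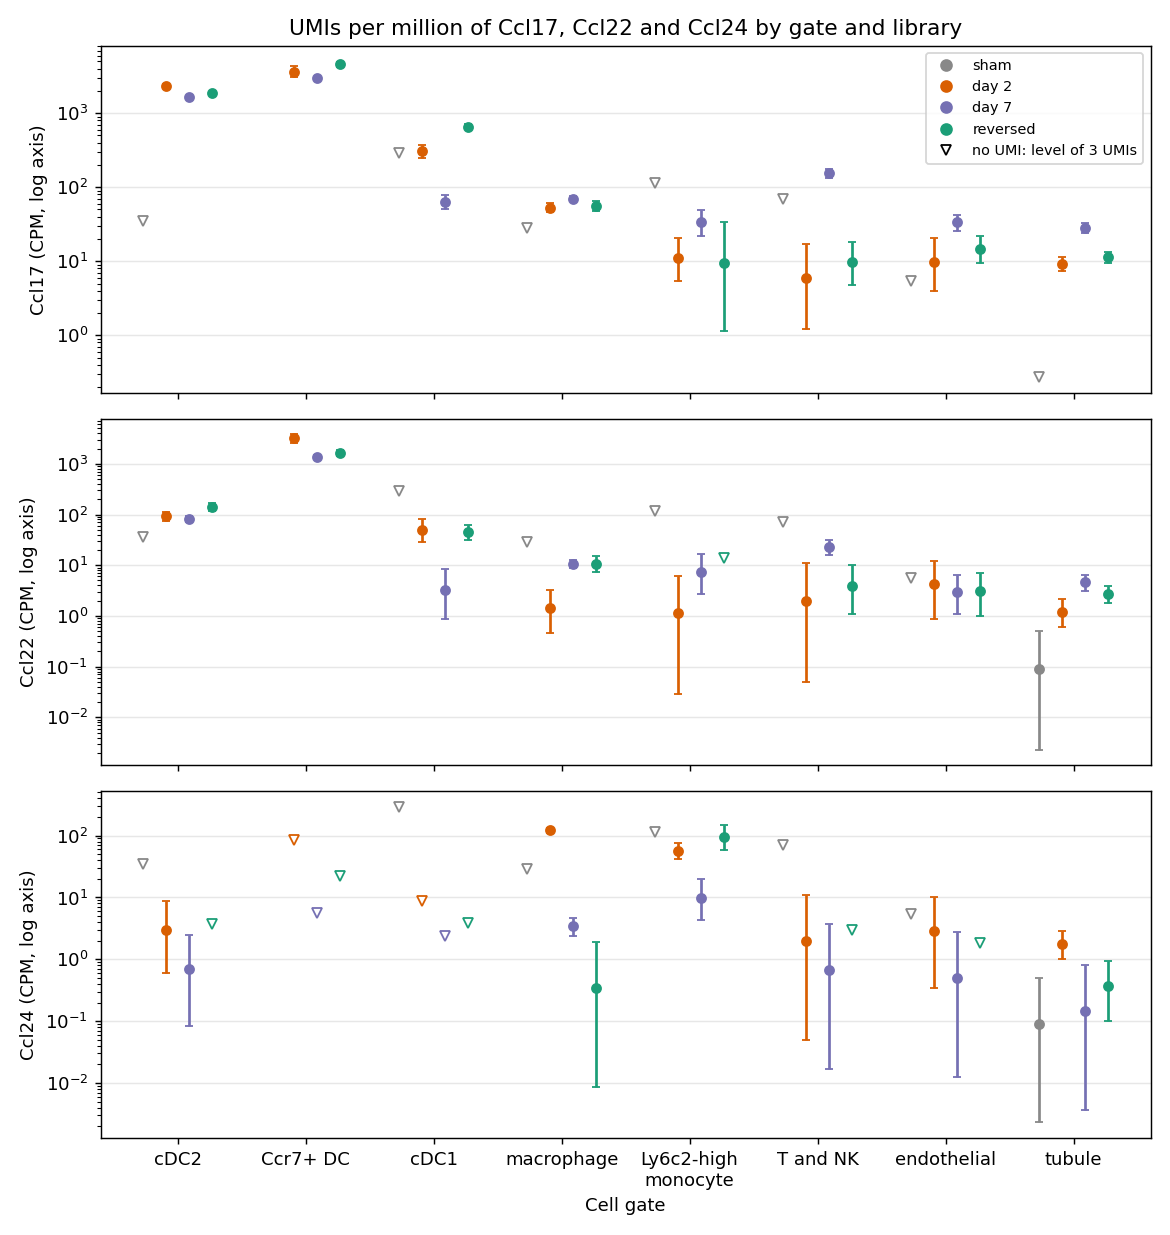
Level of Ccl17, Ccl22 and Ccl24 (CPM of the gate's UMIs, log axis) by cell gate and library; points with bars give the value and its exact Poisson 95% interval, and open triangles mark gates with no UMI at the level that 3 UMIs would give. Ccl17 and Ccl22 peaked in cDC2 and Ccr7-positive cells, and Ccl24 in macrophages at day 2 and Ly6c2-high monocytes.

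Macrophage-gate cells held little Ccl17 each. Their 188, 777 and 166 UMIs at day 2, day 7 and after reversal gave 53.2, 69.9 and 56.1 CPM, and the 37 sham macrophages held none, with a floor of 28.5 CPM. At day 2, 154 of the 188 UMIs were in 1 cell, and the level without it was 9.65 CPM. Tubule cells of the same libraries had 9.18, 28.2 and 11.3 CPM and endothelial cells 9.87, 33.5 and 14.6 CPM. Macrophage levels were above those of tubule cells in all 3 libraries, except at day 2 once that cell was left out, when they were about equal. The share of macrophages with a UMI after thinning was 0.676%, 4.27% and 2.63%, against 1.36%, 4.02% and 1.99% in endothelial cells. At day 7, 8 of 1756 macrophage-gate cells had 10 or more UMIs. The day 7 over day 2 ratio of 0.39 (0.16 to 0.62) became 2.58 without the highest cell of each library, and -0.075 when the tubule level was subtracted.

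Ccl22 was most concentrated in Ccr7-positive dendritic cells. That gate held 46.1%, 61.8% and 49.6% of the library's Ccl22 UMIs at day 2, day 7 and after reversal, although it had only 4, 64 and 16 cells. Its level was 3162 CPM (112 UMIs in 2 cells, 103 of them in 1), 1372 CPM (734 UMIs in 53 cells) and 1656 CPM (224 UMIs in 9 cells, 136 of them in 1). The day 7 library, with the most cells, is the one in which the gate can be described: 82.8% of its cells had a Ccl22 UMI, 48.4% (35.8 to 61.3) did after thinning, and 16 had 10 or more. Reversed over day 7 the log2 ratio was 0.27 (0.05 to 0.49), and -0.74 without the highest cell of each library.

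In cDC2, Ccl22 was lower than in Ccr7-positive cells in each of the 3 libraries with both gates. The gate had 93 UMIs at day 2, 241 at day 7 and 112 after reversal, or 91.7, 82.9 and 140 CPM, and the 15 sham cells had none. The log2 ratio was -0.14 (-0.49 to 0.21) for day 7 over day 2 and 0.75 (0.41 to 1.07) for reversed over day 7, the latter 0.26 without the highest cell of each library. Over all settings the former ran from -0.51 to 0.25 and the latter from -0.40 to 1.55, so neither sign was stable. Ccl22 made up 3.74%, 4.70% and 6.97% of the joint Ccl17 and Ccl22 UMIs in cDC2, against 46.5%, 31.6% and 26.5% in Ccr7-positive cells, so the balance of the pair differed between the gates in each library. Without the highest cell of each library the Ccr7-positive share was 100% at day 2, where the cell left out held all 129 Ccl17 UMIs, 33.7% at day 7 and 47.2% after reversal. Within the macrophage gate Ccl22 was 1.41, 10.4 and 10.8 CPM, with tubule cells at 1.20, 4.62 and 2.67 CPM. Its ratio of 2.24 (1.37 to 3.00) for day 7 over day 2 came from 5 and 116 UMIs, and ran from 0.84 to 2.80 over the settings.

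In the 3 conventional dendritic gates together, 12 of 15 Ccl22-positive cells also held Ccl17 at day 2 (80.0%), 87 of 113 at day 7 (77.0%) and 24 of 37 after reversal (64.9%). Of all cells in these gates, 33.1% of 118, 51.9% of 505 and 36.3% of 171 held Ccl17. The converse shares were 30.8% of 39, 33.2% of 262 and 38.7% of 62 Ccl17-positive cells, so Ccl17 was the more widespread transcript. At 10 or more UMIs of each, 5 of 5, 22 of 26 and 7 of 7 Ccl22-high cells were also Ccl17-high. Free RNA and depth raise such overlaps, and their part was not tested. Of the 29 macrophage or monocyte cells with Ccl24 at day 2, none held Ccl17 and 1 held Ccl22, where 41 and 6 of all 421 such cells did.

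Within cDC2, some genes differed between cells with and without Ccl17, given here as a description since Ccl17 chose the cells. At day 7 the 184 positive and 148 negative cells had median depths of 9242.5 and 7841.5 UMIs. Mgl2, a lectin gene and a cDC2 gate marker, was 1663 CPM in positive and 1088 in negative cells. The macrophage gate held 53.2% of all Mgl2 UMIs in kept cells, so the gene was not particular to dendritic cells here. Pdcd1lg2, which encodes PD-L2, was 23.0 against 4.27 CPM. Flt3, the growth factor receptor of dendritic cells, was lower in positive cells, at 27.1 against 52.1 CPM. The day 2 cells showed the same order for Mgl2 (1106 against 292 CPM) and Flt3 (19.2 against 58.7 CPM). Irf4, a factor required for this dendritic lineage, was 23.4 against 3.67 CPM at day 2, from only 11 and 2 UMIs. More genes were compared, also in the reversed library, and are not given here. No general difference between the cells is therefore read from these values.

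Ccl24 was a transcript of macrophages and monocytes at day 2. The macrophage gate held 436 UMIs in 21 of 296 cells at day 2, 38 in 14 of 1756 at day 7 and 1 in 418 after reversal, or 123 CPM (112 to 135), 3.42 CPM (2.42 to 4.75) and 0.338 CPM (0.00855 to 1.88). None was found in 37 sham macrophages, whose median depth was 2366 UMIs against 11168 at day 2; 3 UMIs there would have been 28.5 CPM. The log2 ratio was -4.81 (-5.21 to -4.42) for day 7 over day 2, and -4.98 without the highest cell of each library. Of the day 2 UMIs, 353 lay in 3 cells, and without the highest cell the day 2 level was 75.8 CPM. After reversal the ratio to day 7 was -1.72 (-2.16 to -0.54), from a single UMI. In the macrophage gate 9.4% of 11061 genes were over 2-fold higher and 4.77% lower at day 7 than at day 2. In the main setting Ccl22 was among the former and Ccl24 among the latter. Over all settings the Ccl22 log2 ratio ran from 0.84 to 2.80, so its 2-fold call was not kept throughout. The Ccl24 ratio ran from -5.13 to -3.31 and stayed past 2-fold. After reversal 2.53% of 11135 genes were higher and 1.39% lower than at day 7, and Ccl24 was among the lower.

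Ly6c2-high monocytes, the circulating cells from which inflammatory macrophages arise, also carried Ccl24. They had 51 Ccl24 UMIs in 8 of 107 cells at day 2, 8 in 3 of 121 at day 7 and 20 in 2 of 29 after reversal, or 57.2, 9.97 and 94.6 CPM. The reversed value was 19 UMIs in 1 cell and 1 in another, and the log2 ratio to day 7 was 3.12 (1.94 to 4.37) with the highest cells and 0.78 without them. Macrophage and monocyte gates together held 95.7%, 90.2% and 75.0% of the library's Ccl24 at day 2, day 7 and after reversal. The conventional dendritic gates held 3, 2 and 0 UMIs, and tubule cells at day 2 had 1.75 CPM.

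The 29 day 2 macrophage and Ly6c2-high monocyte cells with Ccl24 were set beside the 374 without it, at median depths of 10299 and 9670 UMIs. Chil3, a chitinase-like gene of monocytes and alternatively activated macrophages, was 789 CPM in positive and 897 CPM in negative cells. Mrc1, the mannose receptor, and C1qa, a complement subunit, were likewise close, at 117 against 106 and 1984 against 2216 CPM. Retnla, another gene of alternative activation, had 0 UMIs in the 29 positive cells and 6 in the 374 negative ones, too few to compare. Further genes were compared in these cells and are not given here.

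**Figure D4:**
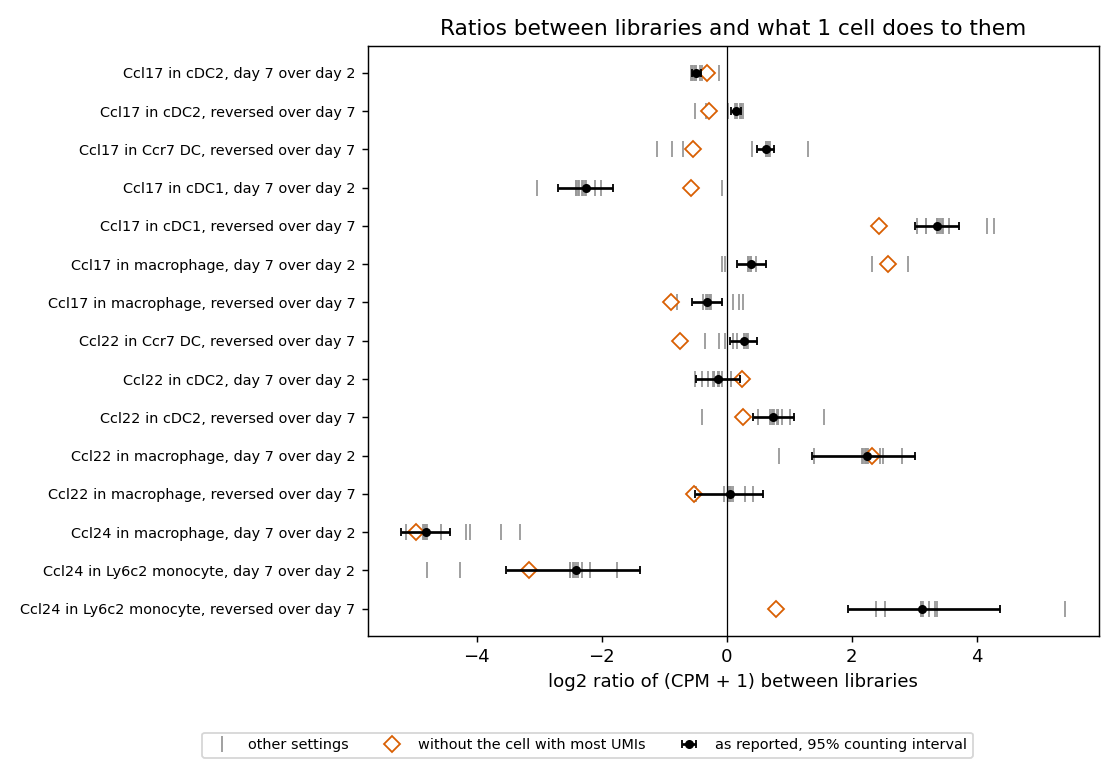
Log2 ratio of CPM + 1 between libraries for 15 pairs of gene and gate; black points with bars give the value and its 95% counting interval, open diamonds the value without the single highest cell of each library, and grey ticks the other settings. The Ccl24 ratio in macrophages stayed far below 0 under each setting, while the reversed over day 7 ratios of Ccl17 and Ccl22 in cDC2 and Ccr7-positive cells lay on both sides of 0.

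Receptors of the trio were sparse. Ccr4, the receptor of CCL17 and CCL22, had 84 UMIs in kept cells of all libraries, and 72 of them (85.7%) were in the T and NK cell gate. Its level there was 13.7 CPM (7 UMIs, 5.50 to 28.2) at day 2 and 34.3 CPM (51 UMIs, 25.5 to 45.1) at day 7. After reversal it was 13.7 CPM (14 UMIs, 7.51 to 23.0), and the 19 sham cells had none. The day 7 value was the highest, though its counting interval overlapped that of day 2, and a link with Ccl17 was not tested. Ccr3, the receptor of CCL24, had 23 UMIs in all, 12 of them in T and NK cells. Ccr8 had 22, with 16 in T and NK cells, and Ackr2, a scavenger of inflammatory chemokines, had 47, with 38 in endothelial cells.

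Of the cytokines listed upstream of the trio, Il4 had 10, Il5 5, Il13 13, Il25 0 and Csf2 20 UMIs over all kept cells, and 10 of the Il13 UMIs came from 2 day 7 T and NK cells. Il33, an alarmin that drives type 2 responses, had 846 UMIs, of which 381 were in the fibroblast or mural gate. Its level was 111 CPM there at day 2, 297 CPM (261 to 336) at day 7 and 93.2 CPM after reversal, on 25, 85 and 126 cells. Tslp had 115 UMIs, 60 of them in tubule cells outside the proximal tubule. Csf1, the macrophage growth factor, had 910 UMIs, 367 of them in endothelial cells. Undetected cytokine message in so few T cells sets no bound on the protein.

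The receptors and factors of the pathway were measured in cDC2 and some were higher at day 7. Il1rl1, the IL-33 receptor, was 2.96 CPM (3 UMIs) in cDC2 at day 2, 45.0 CPM at day 7 and 43.6 CPM after reversal, and 47.2 CPM from 4 UMIs in sham. Irf4 was 12.8, 32.3 and 51.1 CPM at day 2, day 7 and after reversal. Il4ra, the shared receptor chain of IL-4 and IL-13, was 82.8, 62.2 and 44.9 CPM, and Stat6 47.3, 40.2 and 39.9 CPM. Crlf2, the TSLP receptor, was 167, 162 and 172 CPM, and the counting intervals of its ratios, -0.30 to 0.22 and -0.19 to 0.36, included 0. Relb, a factor of maturing dendritic cells, was 734, 759 and 887 CPM in Ccr7-positive cells, against 45.3, 64.6 and 97.2 CPM in cDC2.

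Other genes of alternative activation did not move as a block with the trio. In the macrophage gate Chil3 was 443, 10.5 and 3.72 CPM at day 2, day 7 and after reversal, which is the order of Ccl24. Retnla went the other way, at 1.13, 93.8 and 199 CPM in macrophages, where 196 of the 1043 day 7 and 293 of the 590 reversed UMIs were in 1 cell each, and 0.986, 62.6 and 710 CPM in cDC2, where 313 of the 570 reversed UMIs were in 1 cell. Ear2 in cDC2 was 52.2, 596 and 871 CPM, and Mgl2 668, 1432 and 1140 CPM. Of 42 receptor, pathway and target genes listed, 23 had 30 or more UMIs in cDC2 at day 2 and day 7, and 8 of these were over 2-fold higher at day 7 (Il1rl1, Stat5b, Irf4, Retnla, Mrc1, Mgl2, Ear2, Ccl8) and 1 lower (Chil3), where 7.39% and 1.8% of all genes counted were. Their median log2 ratio was 0.46, against 0.06 over all genes counted. From day 7 to reversal 21 could be counted, with Retnla higher and Ccl8 lower, where 1.82% and 3.44% of all genes counted were. In macrophages 11 of 28 were higher and 2, Chil3 among them, lower at day 7 than at day 2, where 9.4% and 4.77% of all genes counted were, with a median of 0.66 against 0.04 over all genes, and 1 was higher and 3 lower after reversal, where 2.53% and 1.39% of all genes counted were. Mrc1, Mgl2, Clec10a and Chil3 are also gate markers, so their levels depend in part on how the gates were drawn.

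Ligands of related receptors had other sources. Ccl8 had 6620 of its 7472 UMIs in the macrophage gate, at 23.7 CPM at day 2 (84 UMIs, 55 of them in 1 cell), 480 CPM at day 7 and 404 CPM after reversal. Ccl11, the eotaxin of stromal cells and a further ligand of CCR3, had 42 UMIs, 33 of them in the fibroblast or mural gate, and Ccl26 had none. Ccl1, a ligand of CCR8, was in T and NK cells, with 299 UMIs in 8 cells at day 2, 422 in 18 at day 7 and 117 in 5 after reversal, of which 175, 190 and 104 were in 1 cell each. Cx3cl1, which lies between Ccl22 and Ccl17, had 790 of its 1835 UMIs in tubule cells outside the proximal tubule, at 22.6, 50.6, 43.8 and 45.0 CPM in sham, day 2, day 7 and reversed cells, and was higher in endothelial cells, at 74.9, 110, 95.9 and 85.3 CPM.

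Genes whose pattern was most like each member were ranked by Pearson correlation of log2(CPM + 1) over 39 units, a unit being a gate in a library with 20 or more cells, among 11540 genes; units of a library share depth and free RNA, so the coefficients describe these libraries. Ccl22 came first for Ccl17 (r = 0.87), before Syngr2, Plxnc1 and Bcl2a1c (each r = 0.78) and Itgax (r = 0.78), which encodes the integrin CD11c. For Ccl22 the order was Ccl17, Adam23 (r = 0.83), Bcl2a1c (0.75), Etv3 (0.73) and H2-M2 (0.73). For Ccl24 the genes included Cd177 (0.75), Chil3 (0.74), Aprt (0.72) and F13a1 (0.68). Ccl24 had r = -0.01 with Ccl17 and -0.18 with Ccl22.

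The plate-based sample gave a second assay, which the choice of members did not use. Of 768 wells, 539 were kept, at a median of 254927 reads, and 400 of them met the macrophage gate, 33 cDC2, 34 cDC1 and 12 Ccr7-positive; between 88.7% and 100% of wells held each phagocyte marker and at most 5.01% any T and NK marker. Single markers of other cell types reached higher shares of wells, up to 52.1% for neutrophils, 42.3% for B cells, 37.8% for other tubule cells and 32.1% for proximal tubule, and their part in the well values was not tested. Ccl17 was read in 26 wells, and in 6 of them with 10 or more reads, of which 3 were cDC2, 1 cDC1, 1 Ccr7-positive and 1 macrophage. The highest 2 Ccl17 wells, with 1757 and 455 reads, were cDC2 by the gate. The first held 8 of 8 macrophage, 6 cDC2 and 6 Ccr7-positive markers and also 20 Ccl22 reads, and the second 7 macrophage and 5 cDC2 markers. Ccl22 was read in 10 wells, the highest, with 343 reads, in the macrophage gate. That well held 5 macrophage, 4 cDC1 and 3 cDC2 markers, so its gate name is uncertain too. Ccl24 was read in 5 wells: 262 reads in a Ccr7-positive-gate well that also held 51 Ccl17 reads, and 81 in a macrophage-gate well. The former held 7 macrophage, 4 cDC1 and 3 Ccr7-positive markers, and the latter 8 of 8 macrophage and 8 of 8 cDC2 markers, so the gate names of these wells are uncertain. So few wells held each gene that no order of the gates is read from them.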

How the data were processed

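The authors deposited, for each droplet library, raw UMI counts per gene and cell, and for the Smart-seq2 sample raw read counts per gene and well. Cell Ranger, STAR, GRCm38 and mm10 are named, without versions, in the submitters' processing notes. Cells with under 200 genes or over 50% mitochondrial UMIs were removed, then the highest Scrublet scores at 0.8% per 1000 deposited cells (282, 60, 162 and 109 cells in sham, day 2, day 7 and reversed); the automatic threshold had marked 1, 1, 5 and 3 and had not worked. Kept cells numbered 3651, 2147, 4285 and 3127. Each went to the lineage whose marker panel it exceeded most relative to the other cells, phagocytes then to 1 of 7 gates; a first scoring by z-scores, which put monocytes and dendritic cells in neutrophil and B cell gates, was set aside when member values had been seen and is kept as an alternative. UMIs were summed per gate and library and given as CPM with exact Poisson 95% intervals, shares with exact Clopper-Pearson intervals and ratios with exact conditional binomial intervals; all cover counting error only. With 1 library per state no test was made. A gene with 0 UMIs was given a floor of 3 UMIs per gate and library. Shares were also computed after thinning each cell to 1000 UMIs, which left out no cell of the gates shown. Genes named are the 3 members, a list of 42 receptor, pathway and target genes, gate markers and the 5 genes most correlated with each member; 1 gene that this rule names is not reported here. The members and lists were chosen with earlier results of these data known. Leiden clusters (resolution 2, set when that alternative was written), TMM factors and DESeq2 size factors served as alternatives, and wells needed 500 genes, 10000 reads and at most 50% mitochondrial reads. The steps were tested on simulated data. Python 3.11.15, scanpy 1.11.5, scipy 1.17.1, R 4.3.3, edgeR 4.0.16 and DESeq2 1.42.0 were used.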

Additional observations from a re-analysis of the deposited data

Results flagged for a closer look

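Some gates moved in opposite directions between the same libraries; with 1 library per state the difference was not tested in any of these cases, and the values are differences of log2 ratios. For Ccl17 from day 2 to day 7, macrophages (0.39) exceeded cDC1 (-2.26) by 2.65 and cDC2 (-0.49) by 0.88, and Ly6c2-high monocytes (1.50) exceeded cDC1 by 3.76 and cDC2 by 1.99. The monocyte ratio came from 10 and 27 UMIs, or 11.2 and 33.7 CPM, close to the 9.18 and 28.2 CPM of tubule cells, which should lack the gene. The macrophage and cDC1 ratios both turn on 1 day 2 cell, with 154 and 79 Ccl17 UMIs. For Ccl17 from day 7 to reversal, cDC1 (3.36) exceeded macrophages (-0.31) by 3.67, and cDC2 (0.15) exceeded them by 0.46. Neither the cDC2 nor the macrophage sign was stable: without the highest cell of each library the cDC2 ratio was -0.28, and with gates from z-scores the macrophage ratio was 0.26. For Ccl22 from day 2 to day 7, macrophages (2.24) exceeded cDC1 (-3.61) by 5.85, on 5 and 116 against 17 and 4 UMIs; 16 of the 17 were in 1 cell. For Ccl24 from day 7 to reversal, Ly6c2-high monocytes (3.12) exceeded macrophages (-1.72) by 4.85, and 19 of the 20 reversed monocyte UMIs were in 1 cell.

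The plate wells, which enter no comparison between states, held high reads of each chemokine: the highest well had 1757 reads of Ccl17, 343 of Ccl22 and 262 of Ccl24.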

How the results depend on the processing

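No replicate could be left out and no sample spread could be computed, with 1 library per state. No paired analysis was possible because each state is 1 library, so that the states share only a single replicate number, given in accession order, and no pairs can be formed. Over 15 ratios and 13 settings, 145 of 195 values stayed within their counting interval and 173 kept their sign; over 24 levels and 9 settings, 83 of 216 values moved outside it. For Ccl17 in cDC2, day 7 over day 2, the ratio moved to -0.40 with Leiden clusters, -0.12 as a mean over cells, -0.32 without the highest cell and -0.57 with DESeq2 size factors; reversed over day 7 it moved to 0.013 without border cells, -0.50 with gates from z-scores (added after the data were seen), 0.26 with Leiden clusters, -0.34 as a mean over cells and -0.28 without the highest cell. For Ccl17 in cDC1, reversed over day 7, it was 4.27 with Leiden clusters, 4.16 with the tubule level subtracted and 2.43 without the highest cell. For Ccl22 in Ccr7-positive cells, reversed over day 7, it was -0.34 with z-scores, -0.12 with Leiden clusters, -0.021 as a mean over cells and -0.74 without the highest cell. For Ccl24 in macrophages, day 7 over day 2, it was -4.18 without border cells, -3.61 with z-scores, -4.10 as a mean over cells and -3.31 with a pseudocount of 10 CPM. Sign changes elsewhere were: Ccl17 in Ccr7-positive cells, reversed over day 7, -0.70 with a 20% mitochondrial limit, -0.87 without border cells, -1.12 with Leiden clusters and -0.54 without the highest cell; Ccl17 in macrophages, -0.028 with Leiden clusters and -0.075 with the tubule level subtracted for day 7 over day 2, and 0.26 with z-scores, 0.20 with Leiden clusters and 0.10 with the tubule level subtracted for reversed over day 7; Ccl22 in cDC2, reversed over day 7, -0.40 with z-scores, and day 7 over day 2, 0.073 as a mean over cells and 0.25 without the highest cell; Ccl22 in macrophages, reversed over day 7, -0.047 with Leiden clusters, -0.49 as a mean over cells and -0.52 without the highest cell. Without a change of sign, the Ccl22 ratio in macrophages, day 7 over day 2, ran from 0.84 to 2.80. The cause of these moves was not tested beyond what each setting changes. TMM or DESeq2 factors shifted all genes by up to 0.12 in size, and by over 0.1 only in cDC1 and Ly6c2-high monocytes for day 7 over day 2. With Spearman correlation 2, 1 and 2 of the 5 most similar genes were shared for Ccl17, Ccl22 and Ccl24, and with units of 50 or more cells 2, 3 and 3.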

Other observations

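One day 7 cell in the T and NK gate held 179 Ccl17 and 26 Ccl22 UMIs among 10908 UMIs. It carried 8 of the phagocyte and 8 of the T and NK markers, 5 cDC2 and 5 Ccr7-positive dendritic markers, lay near a gate border, and its doublet score was at the 94.6th percentile. That cell made up most of the 229 Ccl17 UMIs of the day 7 T and NK gate. A reversed proximal tubule-gate cell held 6 Ccl22 UMIs with 5 of the Ccr7-positive dendritic markers, and a reversed B cell-gate cell held 5 Ccl22 UMIs with 6 of them; both lay near a gate border.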
